A study of Brassica napus with 48 samples.

Results

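Male sterility at the Ms locus was followed in young flower buds of oilseed rape (Brassica napus) line J03, before buds passed 3 mm. The comparison sets 8 arrays of sterile J03A buds (genotype Msmsrfrf) against 8 arrays of fertile J03B buds (msmsrfrf). All arrays titled as small (under 1 mm) or middle (1 to 3 mm) J03 buds were taken, 16 of the 48 arrays of the series, with bud size as a second factor. All 16 share the rfrf genotype, so the plants compared differ in the labels at Ms alone.

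The series also holds large J03 buds (over 3 mm) and the same 3 sizes of line J10, where sterile J10A plants are MsMsrfrf and fertile J10B plants MsMsRfrf. Its design text places the tetrad stage of pollen in small buds, the uninucleate stage in middle buds and the trinucleate stage in large buds. Every group has 4 arrays, read here as 2 replicates with 2 arrays each. Plants grew in a field and whole buds, stamens and pistils included, were frozen, with 2 to 4 plants sampled per line. Which plants made up a replicate is not stated, so a p-value reflects the scatter of these samples alone, which may be technical. Both J03A and J03B come from 1 segregating line, and no probe set reports the Ms genotype itself.

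In a dominant genic male sterility system, 1 copy of the sterility allele at Ms stops pollen formation while the pistil stays functional. The anther tissue most often involved is the tapetum, the innermost wall layer of the pollen sac. It feeds the developing microspores, secretes the glucanases that dissolve the callose around the tetrads, and makes the precursors of the outer pollen wall before it dies. Genes used late in pollen are switched on only after the microspores have left the tetrads.

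RNA was hybridised to Affymetrix ATH1 arrays, whose probe sets were designed for Arabidopsis thaliana. A gene name below is that of the Arabidopsis gene a probe set was designed for, and a signal compares samples for 1 probe set, never probe sets with each other. Signals are MAS5 intensities scaled to a common mean per array. Differences are sterile minus fertile on the scale log2(signal + 112.5), which understates the change of dim probe sets. Adjusted p-values are those of limma with Benjamini-Hochberg adjustment over all 14021 probe sets tested, and a probe set was called at an adjusted p under 0.05. In whole buds, fewer cells of a type and less RNA per cell cannot be told apart.

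Over small and middle buds, 3 probe sets were higher and 4 lower in sterile buds (0.0214% and 0.0285%), together 0.0499% of the 14021 tested. The 3 that rose were scpl35, AT1G62500 and the unnamed 260355_at. The 4 that fell were AT2G28680, AT3G61160 and the unnamed 245668_at and 251590_at. At an unadjusted p under 0.05 there were 1008 probe sets (7.19%), 590 higher and 418 lower, where chance alone gives 701. The median standard error of a change was 0.23, and the smallest called change had a size of 0.85. Leaving out 1 of the 8 replicates left 0 to 2 calls. No call remained by limma without sterile small replicate 1, sterile middle replicate 2, either fertile small replicate or fertile middle replicate 2. There was 1 call without sterile middle replicate 1, and there were 2 without sterile small replicate 2 or fertile middle replicate 1. Only 245668_at was called in any of these 8 fits among the 7, in 3 of them. Fitted with the small and middle groups of both lines and no large buds, 6 probe sets were called, all lower. Only 245668_at and 251590_at of the 7 were among them, so all 3 rises lost the call there (adjusted p 0.060 to 0.078). Without the array least like its group (fertile small replicate 1, second array) 4 of the 7 remained.

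**Figure D1:**
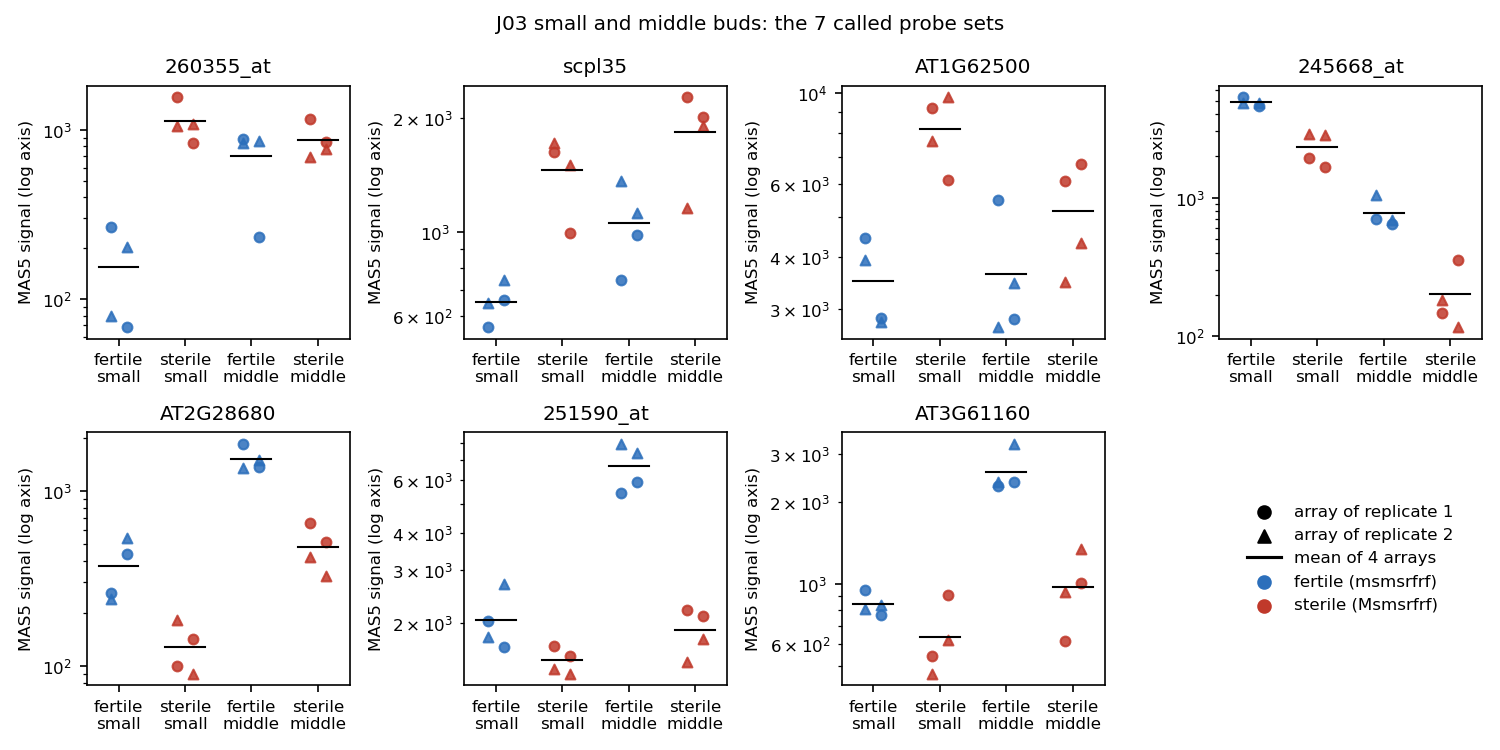
MAS5 signal (log axis) of the 7 called probe sets in the 16 J03 small and middle arrays. Each point is 1 array, circles and triangles mark replicates 1 and 2, black lines are means of 4 arrays, blue is fertile and red is sterile. Sterile and fertile arrays of the same size do not overlap in either size for 245668_at and AT2G28680.

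The difference called in most settings was at 245668_at, which the annotation used here does not name. In small buds its signals were 1944, 1666, 2854 and 2833 on the sterile arrays (replicate 1, then replicate 2, as in all lists of 4 below) and 5278, 4603, 4778 and 4854 on the fertile ones. In middle buds they were 148, 357, 182 and 117 on the sterile arrays and 697, 650, 1045 and 687 on the fertile ones. All 8 sterile arrays lay below all fertile arrays of their size, and the signal also dropped from small to middle buds in both genotypes. The change was -1.30 (SE 0.19, adjusted p = 0.0085), made up of -1.07 in small and -1.53 in middle buds. It was called in all 12 of the alternative settings that kept every replicate. In large buds the change was 0.37 (adjusted p = 0.772), and the early and late changes differed by -1.66 (adjusted p = 0.023).

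AT2G28680, a protein of the cupin superfamily, was lower in sterile buds at both sizes. Its sterile signals were 99.8, 144, 183 and 90.7 in small buds and 651, 508, 418 and 327 in middle buds. Its fertile signals were 262, 438, 242 and 541 in small buds and 1850, 1368, 1355 and 1500 in middle buds. No sterile array reached the lowest fertile array of its size, while both genotypes rose from small to middle buds. The change was -1.23 (SE 0.22, adjusted p = 0.042), with -0.97 in small and -1.49 in middle buds. Large buds gave -1.14 (adjusted p = 0.094), and the change before 3 mm differed from it by only -0.09.

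AT3G61160 encodes a shaggy-like protein kinase of the family that includes the brassinosteroid-signalling kinases. In small buds its signals were 544, 914, 469 and 622 on sterile and 951, 772, 811 and 838 on fertile arrays, so the groups overlapped. In middle buds they were 618, 1004, 934 and 1343 on sterile and 2300, 2369, 2373 and 3270 on fertile arrays, with no overlap. The change over both sizes was -0.86 (SE 0.16, adjusted p = 0.042). In middle buds alone it was -1.34 (adjusted p = 0.033), against -0.38 in small buds (adjusted p = 0.823). The difference between the sizes did not pass the test (adjusted p = 0.782). In large buds the change was -2.05 (adjusted p = 6.7e-06). AT3G61160 was the only annotated and tested member of a list of 16 genes of brassinosteroid signalling and shaggy-like kinases.

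The unnamed 251590_at had a like course. Small sterile buds gave 1682, 1555, 1408 and 1357 and small fertile buds 2026, 1659, 1798 and 2689, with a narrow overlap. Middle sterile buds gave 2205, 2104, 1477 and 1771, whereas middle fertile buds gave 5435, 5890, 7912 and 7406, all well above. The change was -1.08 (SE 0.20, adjusted p = 0.042) over both sizes and -1.76 (adjusted p = 0.033) in middle buds. In large buds, fertile arrays reached 32557 to 48130 while sterile arrays stayed between 1184 and 3293. The large-bud change was -4.23 (adjusted p = 2.3e-09), and the early change differed from it by 3.15 (adjusted p = 5.5e-05).

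Middle buds alone called 245668_at, 251590_at, AT3G61160 and 1 more probe set, the unnamed 261341_s_at, which is described here after its values were seen. Its middle-bud signals were 1349, 1122, 1370 and 1295 on sterile and 14397, 6700, 11442 and 8803 on fertile arrays. The fertile arrays were all several times brighter. The middle-bud change was -2.85 (SE 0.52, adjusted p = 0.044). Small buds gave 419, 390, 647 and 188 on sterile and 800, 1017, 645 and 882 on fertile arrays, which overlapped by 1 array. Its change over both sizes, -1.88, was the lowest of all probe sets tested and missed the threshold (adjusted p = 0.054). It was called in 7 of 12 alternatives that kept every replicate and in none of the 8 that left 1 out, with adjusted p from 2.27e-06 to 0.441. The fit of the 4 J03 groups alone gave 2.27e-06 over both sizes, 0.0365 in small buds and 0.00632 for the size difference. In J10 the same change was -1.63 (adjusted p = 0.038).

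Among the probe sets that rose, scpl35 encodes a serine carboxypeptidase-like protein. Its small-bud signals were 1626, 994, 1720 and 1499 on sterile and 559, 661, 648 and 746 on fertile arrays. Its middle-bud signals were 2268, 2017, 1156 and 1905 on sterile and 746, 982, 1362 and 1124 on fertile arrays. The groups were apart in small buds and overlapped in middle buds, where sterile replicate 2 held the lowest sterile array. The change was 0.87 (SE 0.16, adjusted p = 0.042), with 1.02 in small and 0.73 in middle buds.

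AT1G62500 belongs to the lipid transfer protein and seed storage albumin family, small secreted proteins that bind lipids. Sterile small buds gave 9195, 6145, 7632 and 9733 and fertile small buds 4445, 2855, 3932 and 2785, with no overlap. Middle buds gave 6098, 6732, 3480 and 4337 on sterile and 5508, 2837, 2709 and 3470 on fertile arrays, with an overlap from 1 bright fertile array. The change was 0.85 (SE 0.16, adjusted p = 0.049), with 1.20 in small and 0.50 in middle buds.

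The unnamed 260355_at rose in small buds. Sterile small arrays read 1557, 837, 1063 and 1086, and fertile small arrays 267, 68.4, 79.3 and 203. The lowest sterile array was far above the highest fertile one. In middle buds the sterile signals of 1162, 848, 692 and 770 overlapped with the fertile 884, 232, 833 and 861, and 1 fertile array stood far below the others. The change was 2.27 in small buds, the only call in that size (0.00713% of probe sets), 0.37 in middle buds and 1.32 over both (SE 0.25, adjusted p = 0.042). All 4 fertile large arrays, at 872 to 2004, were above the highest fertile small array.

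A glycosyl hydrolase gene gave the widest gap between genotypes in small buds. AT3G23770 belongs to the family of the callose-degrading glucanases. Its small-bud signals were 432, 593, 320 and 283 on sterile arrays and 6539, 5377, 7553 and 8787 on fertile ones. All 4 fertile arrays were far above all 4 sterile ones. In middle buds both genotypes were bright, with 32816, 32529, 55926 and 58668 on sterile and 46556, 24276, 21836 and 26811 on fertile arrays.

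The small-bud change of AT3G23770 was -3.80 and the middle-bud change 0.60. In the fit of all 12 groups the small-bud change missed the threshold (SE 0.78, adjusted p = 0.090), as did the difference of 4.40 between sizes (adjusted p = 0.559). In the fit of the 4 J03 small and middle groups alone, both were called, the small-bud change with an SE of 0.26 and an adjusted p of 7.56e-06 and the size difference with an adjusted p of 0.000108. The change over both sizes was -1.60, with an adjusted p of 0.486 in the fit of all groups and a range from 0.000379 to 0.836 over the alternatives. In large J03 buds the 2 sterile replicates differed widely, with 157 and 428 on the arrays of replicate 1 and 11518 and 9500 on those of replicate 2. The 4 sterile and 4 fertile small arrays of J10 read 183 to 509 and 227 to 355 in turn, so the fertile small J03 buds were the only bright group among the 4 groups of small buds. Signals of the 2 lines can also differ where the gene sequences do, which was not tested.

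**Figure D2:**
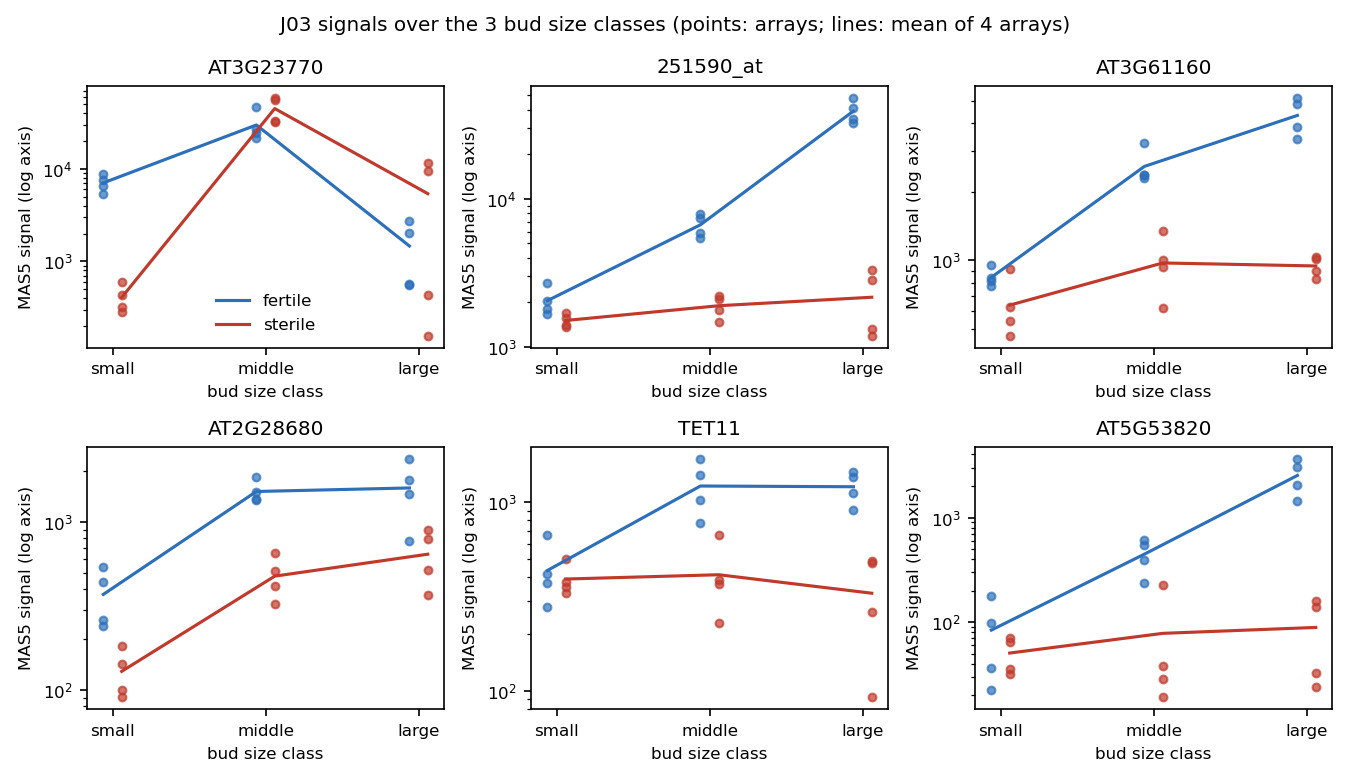
MAS5 signal (log axis) against bud size class for 6 J03 probe sets. Points are arrays and lines join means of 4 arrays, blue for fertile and red for sterile. AT3G23770 is apart in small buds and overlaps in middle buds, whereas 251590_at, AT3G61160 and TET11 overlap in small buds and are apart in middle buds.

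SHT and AT2G03740 were also far brighter in middle than in small buds, and their small-bud arrays overlapped. SHT, which makes the spermidine conjugates of the pollen surface, read 58 to 393 in sterile and 151 to 421 in fertile small buds. AT2G03740, a late embryogenesis abundant family gene, read 49 to 87 in sterile and 79 to 101 in fertile small buds. A9, the tapetum marker AT5G07230, was apart in small buds, with 825 to 1513 on sterile against 1579 to 1939 on fertile arrays, and overlapped in middle buds. In middle buds AT2G03740 was apart, with 4389, 3899, 6344 and 6486 on sterile and 10988, 9892, 11040 and 14822 on fertile arrays. SHT was also apart there, with 7072, 6253, 9757 and 9992 on sterile and 16845, 10334, 14830 and 15492 on fertile arrays. The middle-bud changes were -1.15 for AT2G03740 (adjusted p = 0.422) and -0.79 for SHT (adjusted p = 0.849), neither of them called. The share of all probe sets whose arrays are apart in 1 size was not counted. Uncalled genes said to be apart in 1 size, here and below, are therefore given as values only.

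Taken one size at a time, 1 probe set was called in small buds and 4 in middle buds, all 4 of them lower (0.0285%). At an unadjusted p under 0.05 the counts were 970 (6.92%) and 790 (5.63%). The small-bud call was lost without sterile small replicate 1 or either fertile small replicate. There was no middle-bud call by limma without sterile middle replicate 1 or any 1 of the 4 fertile replicates, and the count was 1 without sterile middle replicate 2. The changes of the 2 sizes, which come from separate samples, had the same sign at 7370 of the 14021 probe sets (52.6%). Their correlation across probe sets was 0.05, as a description over probe sets that share arrays. In the fit of the 4 J03 groups alone, which has 4 residual degrees of freedom and tested 12324 probe sets, 44 probe sets were called in small buds (26 higher, 18 lower) and 11 in middle buds (5 higher, 6 lower).

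The difference between the sizes was called for 1 probe set (0.00713%), the unnamed 261438_at. In small buds it was lower in sterile plants, with 6416, 3326, 7190 and 7476 against 19259, 13417, 14973 and 11043. In middle buds it was higher, with 9558, 10212, 6462 and 7051 against 4518, 5058, 3707 and 4313. The arrays were apart in opposite directions in the 2 sizes. The changes were -1.29 and 0.88, and their difference was 2.17 (SE 0.36, adjusted p = 0.038). At an unadjusted p under 0.05 the size difference had 739 probe sets (5.27%). It kept 1 call without sterile small replicate 2 or sterile middle replicate 2, and had 0 by limma without any 1 of the other 6 replicates.

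The 3 named probe sets next in that comparison missed the threshold. AT5G25560, a zinc finger protein, gave -0.77 in small and 0.50 in middle buds (adjusted p of the difference 0.381). AT4G20420, of a tapetum-specific protein family, gave -0.26 and 1.03 (adjusted p = 0.495), and its middle-bud signals of 1434, 1642, 1537 and 1481 in sterile buds lay above the fertile 796, 819, 600 and 574. AT5G09500, a ribosomal protein gene, gave 0.23 and -1.18 (adjusted p = 0.494), with 997, 1155, 1355 and 1119 in sterile against 3047, 2726, 2778 and 2486 in fertile middle buds.

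The rule for named genes also gives uncalled genes with the lowest p whose sterile replicates lie on one side of the fertile ones in both sizes. On the higher side, 2 class III peroxidases, enzymes that act on cell wall phenolics and proteins, had arrays that did not overlap in either size. PRXR1 read 16690, 13724, 17817 and 19555 against 12305, 8789, 13269 and 10046 in small buds, and 17191, 18560, 15228 and 17536 against 12413, 9612, 10624 and 8103 in middle buds. Its change was 0.68 (SE 0.14, adjusted p = 0.119). AT4G16270, in Arabidopsis the peroxidase PRX40 of the tapetum, read 8320, 7076, 8125 and 9004 against 4955, 3913, 6643 and 6762 in small buds. In middle buds it read 5759, 4671, 5706 and 6268 against 3411, 2611, 2498 and 2327, for a change of 0.79 (SE 0.17, adjusted p = 0.122). The fit of the 4 J03 groups alone called PRXR1 (adjusted p = 0.0416) and AT4G16270 (adjusted p = 0.0384) over both sizes. They were called in 4 and 5 of the 12 alternatives that kept every replicate, and in 0 of the 8 that left 1 out.

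The other higher genes of that rule had changes from 0.54 to 1.01 and adjusted p from 0.190 to 0.320. TRM15, named for a motif that recruits proteins to microtubules, had the largest at 1.01 and was apart in middle buds, with 649, 729, 860 and 877 against 301, 85.6, 234 and 230. AT2G20870, a putative cell wall protein, was apart in small buds, with 3496, 3247, 3959 and 3390 against 1451, 1959, 1672 and 1598, and gave 0.11 in middle buds. AT1G25275 was apart in middle buds, with 595, 659, 850 and 690 against 60.8, 216, 159 and 375, and gave 0.23 in small buds. The remaining genes were AT3G48140 (0.57), EMB2786 (0.68) and AT1G29850 (0.54). As with the peroxidases, the arrays of EMB2786 did not overlap in either size.

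The lower genes of the rule had changes from -0.75 to -1.20 and adjusted p from 0.259 to 0.346. AT4G10260, a sugar kinase of the fructokinase type, had the largest at -1.20, and its middle-bud arrays of 553, 34.0, 90.7 and 102 overlapped with the fertile 906, 454, 977 and 749. AT1G20120 (-0.88) is a GDSL lipase family member, HAT2 (-0.83) a homeodomain-leucine zipper factor and AT3G61490 (-0.77) a pectin lyase-like protein. AT4G14500 (-0.80) carries a lipid-binding START domain and AT1G79520 (-0.85) belongs to the cation efflux transporters. The last members were AT5G60680 (-1.05), with 86.5 to 192 on sterile against 322 to 479 on fertile small arrays, and AT3G18500 (-0.75).

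Complete separation of single arrays in both sizes was found at 34 probe sets, 24 higher (0.171%) and 10 lower (0.0713%) in sterile buds, 0.242% of those tested. Replicate means were separated at 1217 probe sets (8.68%), 678 higher (4.84%) and 539 lower (3.84%). The named members of the 34 included AT2G28680, PRXR1, AT4G16270, EMB2786 and the plastid ribosomal gene rps18. Of the 34, 245668_at and AT2G28680 were called.

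**Figure D3:**
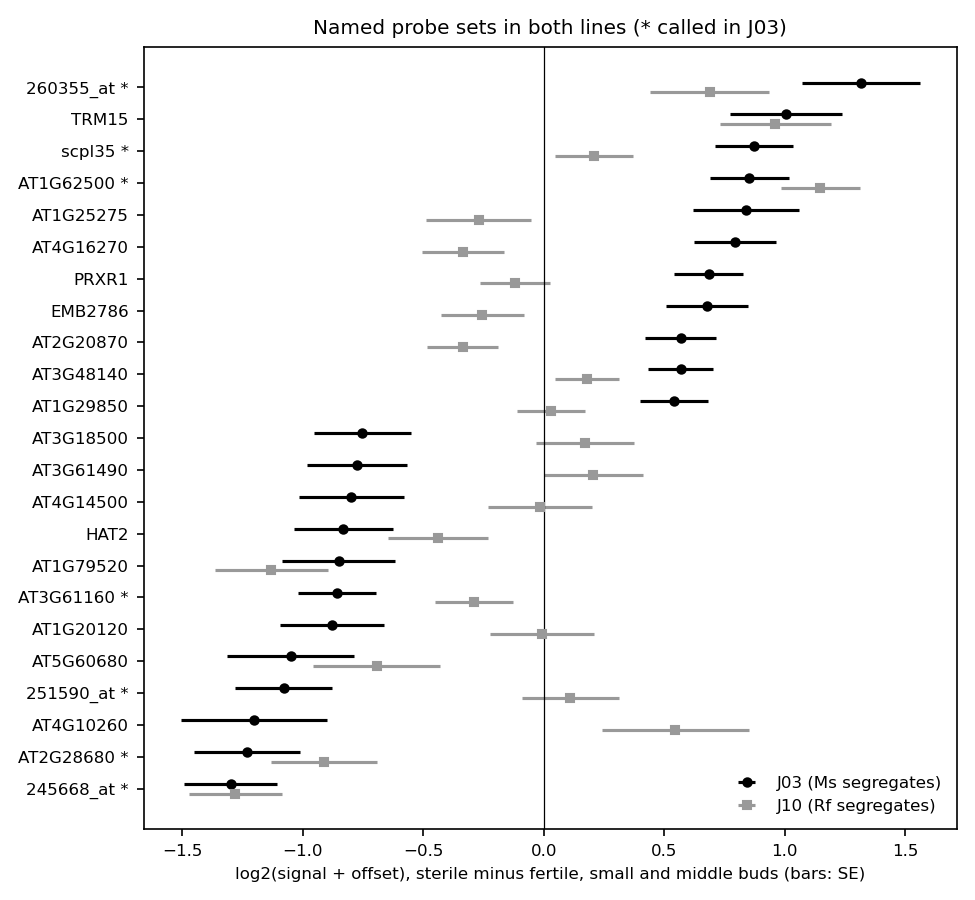
Change in small and middle buds together (log2 scale, sterile minus fertile, bars SE) of the 7 called probe sets (asterisks) and the 16 uncalled genes of the rule. Black circles are J03, where Ms differs, and grey squares are J10, where Rf differs. The 2 lines lie close together at 245668_at and apart at PRXR1 and AT4G16270. The difference between the lines was not called at PRXR1 (adjusted p = 0.185) or AT4G16270 (adjusted p = 0.138).

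J10, in which sterile and fertile plants differ at Rf, gives the most similar comparison. There 84 probe sets were called over small and middle buds (0.599%), 12 higher (0.0856%) and 72 lower (0.514%). The count was 137 without the J10 array least like its group and 13 when the 3′ to 5′ ratio entered the model. 245668_at changed by -1.28 (adjusted p = 0.0013) in J10, close to its -1.30 in J03, and AT1G62500 by 1.15 (adjusted p = 0.00061). AT2G28680 gave -0.91 (adjusted p = 0.055), whereas 251590_at gave 0.11 and AT3G61160 gave -0.29. Of the 72 probe sets that fell in J10, 42 were below 0 in J03 (median -0.13), 16 of them at an unadjusted p under 0.05. Of the 12 that rose in J10, 10 were above 0 in J03 (median 0.35), 5 of them at an unadjusted p under 0.05. Over all probe sets, 49.8% were above 0 in J03, and 4.21% were higher and 2.98% lower at that unadjusted threshold. The lines share no arrays, but each probe set has 1 estimate of spread for both.

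The difference between the lines, J03 minus J10, was called for 5 probe sets, all positive (0.0357%). The named ones were ChiC, a class V chitinase (difference 2.01, adjusted p = 0.021), and AT4G28240, a wound-responsive family gene (1.37, adjusted p = 0.016). ChiC was higher in sterile J03 small buds, with 717, 580, 620 and 617 against 273, 317, 426 and 128, while its J03 change over both sizes was 0.76 (adjusted p = 0.466). In J10 it fell by 1.26 (adjusted p = 0.013). AT4G28240 gave 0.14 in J03, with sterile and fertile arrays overlapping in both sizes, and fell by 1.24 in J10 (adjusted p = 0.000124). The unnamed 261901_at, 264185_at and 263426_at differed by 2.11, 1.35 and 1.64. None of the 5 was called in J03, and all 5 were called lower in J10. In the J10 small and middle buds the 3′ to 5′ log2 ratio was 1.48 to 1.81 on sterile and 0.805 to 1.70 on fertile arrays. With that ratio in the model only 261901_at kept the call (adjusted p = 0.00855), and on first hybridisations alone no call remained by limma (adjusted p 0.106 to 0.559 for the 5). The count was 10 without sterile small replicate 1, 3 without fertile small replicate 2, 2 without sterile middle replicate 2 or fertile middle replicate 1, and 1 without any of the other 4 J03 replicates.

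The same contrast in large buds called 135 probe sets (0.963%), 29 higher (0.207%) and 106 lower (0.756%). The 106 late-lower probe sets were described in the earlier sizes, whose arrays are separate. The sizes share the estimate of spread of each probe set, so the unadjusted p-values below are not independent of the large-bud calls. In middle buds 85 of the 106 were below 0, with a median of -0.33, and 27 were lower at an unadjusted p under 0.05, against 2.81% of all probe sets. In small buds 58 were below 0, with a median of -0.06, and 3 were lower at that threshold, against 2.94% of all. Sterile and fertile small-bud means were 79 and 54 for AT1G52680, 51 and 84 for AT5G53820 and 118 and 99 for AT3G07840. Those are near or below the 112.5 added to each signal, so a fall could hardly show. Others were bright, such as 251590_at (1501 and 2043), and the dim ones were not counted. The small-bud counts therefore cannot tell an absent change from an absent signal. Only AT3G61160 and 251590_at were called already in middle buds. Of the 29 late-higher probe sets, 27 were above 0 in middle buds (median 0.38) and 10 in small buds (median -0.22). At an unadjusted p under 0.05, 5 of the 29 were higher in middle buds, while 9 were lower and 2 higher in small buds. Of all 14021 probe sets, 396 were higher in middle buds at that threshold, and 558 were higher and 412 lower in small buds. Of all probe sets, 50% were above 0 in middle and 49.2% in small buds.

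**Figure D4:**
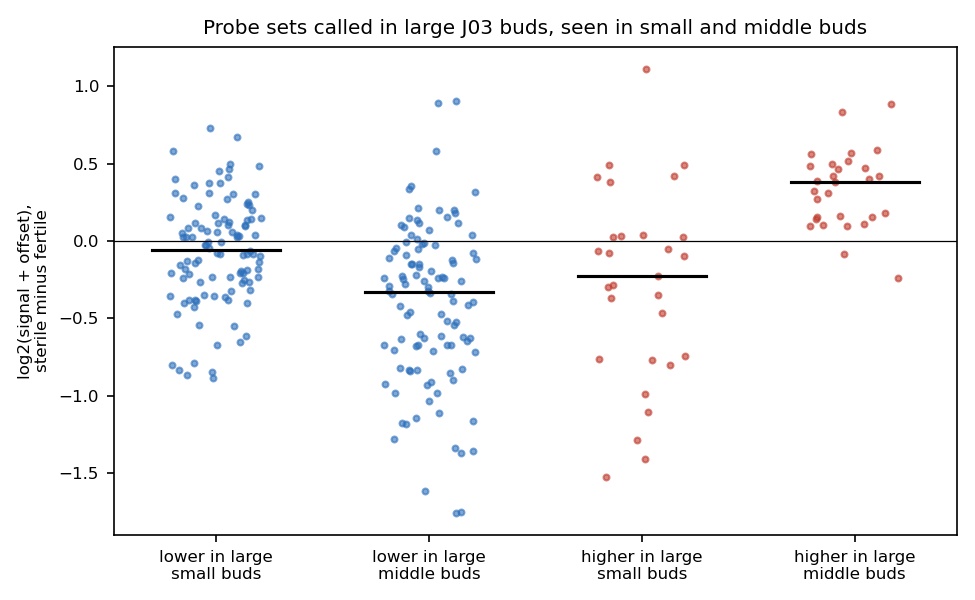
Change in small and in middle buds (log2 scale, sterile minus fertile) of the 106 probe sets called lower and the 29 called higher in large J03 buds. Each point is 1 probe set and black lines are medians. The medians of the late-lower set are -0.06 in small and -0.33 in middle buds, and those of the late-higher set -0.22 and 0.38. Some late-lower probe sets were too dim in small buds of both genotypes for a fall to show.

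A test of the early change against the large-bud change called 38 probe sets (0.271%). Of these, 30 were less negative or more positive before 3 mm (0.214%) and 8 the opposite (0.0571%). How many of the 38 were too dim before 3 mm for a fall to show was not counted. The count was 25 without fertile middle replicate 1. The polygalacturonase AT3G07840, a pectin-degrading enzyme of maturing pollen, changed by -4.13 in large buds and -0.39 earlier, a difference of 3.75. In middle buds it read 93.7, 226, 99.1 and 150 on sterile and 121, 156, 978 and 601 on fertile arrays, so only fertile replicate 2 was bright, and its early change was 0.07 without that replicate. AT1G52680 and AT2G46140, both of late embryogenesis abundant families, differed by 3.23 and 1.55. The J03 small and middle group means of AT1G52680 were 54 to 79, against 1400 in fertile large buds. These early means lay below the 112.5 added to each signal, so an early fall could not show at AT1G52680. AT1G12010, of the family of enzymes that make ethylene, rose by 1.98 in large buds, gave -0.01 earlier and differed by -1.99. ALDH7B4, an aldehyde dehydrogenase of the antiquitin family, differed by -1.36. In small buds ALDH7B4 was lower in sterile plants, with 3855, 2518, 3401 and 3856 against 7423, 4643, 6468 and 5549 (change -0.80, adjusted p = 0.110).

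The gene lists cover processes of the anther and the other tissues of a bud. AT3G61160 was the only member of the 20 lists called over both sizes. Among tapetum and early anther regulators, 5 members were tested and 3 were above 0, with a median of 0.20. AMS, a transcription factor of the tapetum, gave -0.03 (adjusted p = 0.991) and changed sign in 5 of its alternatives, and ROXY1 and ROXY2, glutaredoxins of early anthers, each gave 0.22. ROXY1 gave -0.021 without fertile small replicate 2.

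In the list of pollen wall and tapetum enzymes, all 7 tested members were below 0, with a median of -0.21. Of all probe sets, 49.8% were above 0. A9 and SWEET8, which are not enzymes, were among the 7. The largest was AT4G00040, a chalcone synthase-like enzyme, at -0.72 (adjusted p = 0.562). In middle buds AT4G00040 was apart, with 3904, 3431, 4779 and 5141 on sterile and 6559, 6461, 7028 and 7022 on fertile arrays. SHT gave -0.53 over both sizes (adjusted p = 0.694). A9 gave -0.15 over both sizes (adjusted p = 0.927) and -0.57 in small buds (adjusted p = 0.687). SWEET8, a sugar exporter of the tapetum, gave -0.21 and was 0.06 without sterile middle replicate 2.

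Of 7 tested genes of maturing pollen, 5 were below 0. The median of the 7 was -0.29 over both sizes, 0.08 in small and -0.67 in middle buds. In small J03 buds the group means of AT5G53820, AT5G45880 and AT3G07840 were 51 to 118, where a fall could hardly show. The other members had means of 163 to 757 there. The tetraspanin TET11 read 228, 368, 384 and 668 on sterile and 777, 1022, 1388 and 1688 on fertile middle arrays, which did not overlap. Its change was -0.72 over both sizes (adjusted p = 0.346), -1.36 in middle buds and -0.08 in small buds. AT5G53820, a late embryogenesis abundant protein, read 38.5, 226, 28.7 and 19.2 on sterile and 608, 239, 550 and 389 on fertile middle arrays, close at 1 array only. Its change was -0.91 over both sizes (adjusted p = 0.408) and -3.70 in large buds (adjusted p = 5.2e-06).

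The remaining lists had few tested members and no call. Pollen coat proteins had 3 tested members from -0.36 to 0.45. Of 5 meiosis genes 4 were above 0, from -0.29 for ATSPO11-1 to 0.30 for PS1. JMT, which methylates jasmonate, gave -0.52 (adjusted p = 0.694) and AT5G05600 gave -0.10. Cell death proteases and nucleases had 5 of 8 above 0, from -0.31 to 0.33. The gibberellin receptors GID1C and GID1B gave -0.48 and -0.21, and the flavonoid gene DFR and the phenylpropanoid gene HCT -0.37 and 0.05. The mitotic kinase AUR1, the only tested cell division gene, gave 0.46 (adjusted p = 0.518), with 0.86 in small buds, and the only heat shock gene -0.03.

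Markers of other tissues were read beside these results. Of all probe sets tested, 49.8% were above 0. All 3 tested pistil and ovule genes were above 0 (0.14 to 0.30), and no floral identity gene was tested. All 7 nuclear photosynthesis genes were above 0, with a median of 0.23 and PSAN, a photosystem subunit, highest at 0.39 (adjusted p = 0.714). None of the 7 had an unadjusted p under 0.05, and their median in J10 was -0.50. Of 46 plastid photosynthesis genes 27 were above 0 (median 0.06), and of 15 plastid ribosome and RNA polymerase genes 13 were (median 0.12). The highest, rps18 at 1.15 (adjusted p = 0.397) and rpl33 at 1.06 (adjusted p = 0.534), were brightest in sterile small replicate 2, where rpl33 read 14669 and 19565 against 4281 and 3159 in replicate 1. The lowest was psbD, a photosystem subunit, at -0.85 (adjusted p = 0.651). In small buds psbD read 4107, 3178, 2643 and 3338 on sterile and 8270, 6711, 8757 and 7967 on fertile arrays, which did not overlap. In the fit of the 4 J03 groups alone psbD was called lower over both sizes (adjusted p = 0.0254) and in small buds (-1.24, adjusted p = 0.0175). Of 15 mitochondrion-encoded probe sets 11 were below 0, with cox2, a subunit of the respiratory chain, at -0.57 (adjusted p = 0.508). Tubulins had 5 of 6 above 0 (median 0.08) and SWEET sugar transporters 6 of 13 (median -0.03). In the fit of all groups not one member of these tissue and organelle lists was called, and their part in the changes above was not tested.

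**Figure D5:**
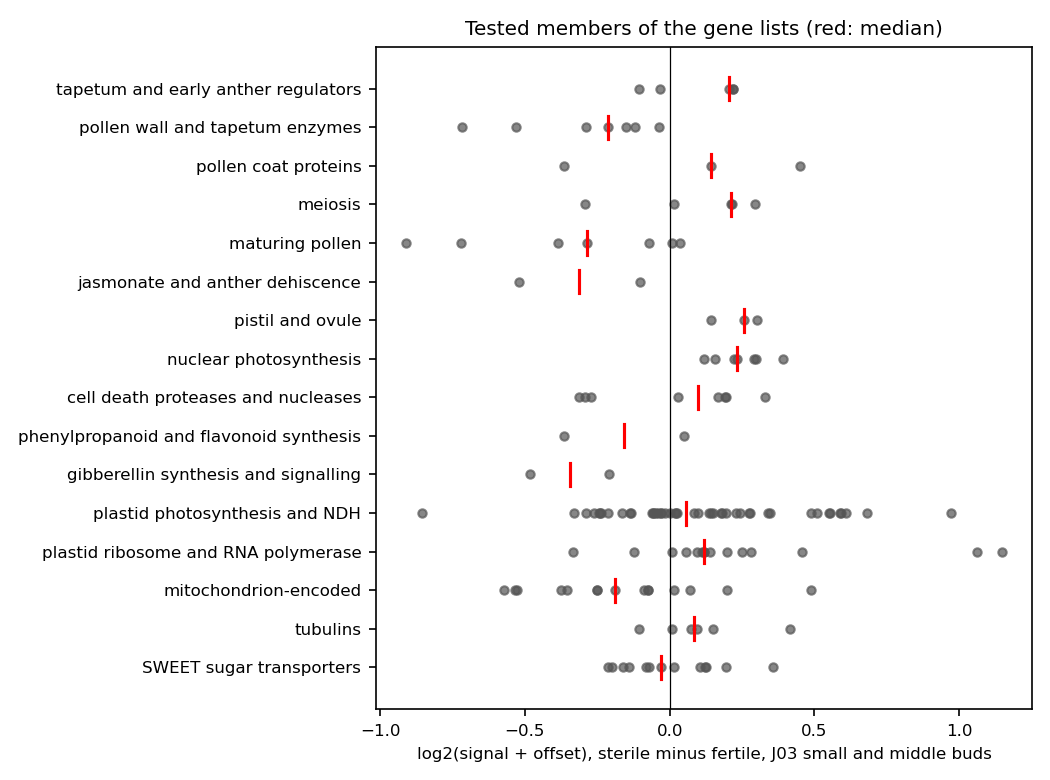
Change over small and middle J03 buds (log2 scale, sterile minus fertile) of each tested member of the gene lists with at least 2 tested members. Points are probe sets and red lines are medians. All 7 tested members of the list of pollen wall and tapetum enzymes, A9 and SWEET8 among them, lie below 0. All 7 nuclear photosynthesis genes lie above 0.

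The array measures of the 2 genotypes overlapped. The correlation of a J03 small or middle array with the others of its group ran from 0.783 to 0.837. The 3′ to 5′ log2 ratio of the control transcripts, a sign of RNA integrity, was 1.00 ± 0.16 in sterile and 0.909 ± 0.225 in fertile replicates (SD, n = 4 each, exact 2-sided permutation p = 0.457). The median log2 signal of plastid-encoded probe sets was 10.91 ± 0.48 in sterile and 10.64 ± 0.32 in fertile replicates (SD, n = 4 each, exact 2-sided permutation p = 0.314). After adjustment over these 2 measures both p-values were 0.457, and the smallest p that 4 against 4 allows is 0.0286. Each 4 held small and middle replicates, so the SD includes the spread between sizes. With the sizes centred first, the permutation p was 0.543 for the ratio and 0.371 for the plastid signal.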

How the data were processed

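Total RNA of whole buds was measured on 48 arrays. The authors made the deposited intensity values with MAS5, per the submitters' processing notes, version unknown here. Arrays had been scaled to a trimmed mean (2%) of 500.0, as the values show. Neither detection calls nor probe-level data were used, and the number of arrays limits the precision.

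From these intensities log2(signal + 112.5) was computed, the offset being the median over arrays of the 25th percentile. Control probe sets (64 of 22810) were left out. Testing required a group whose 2 replicates were both at or above the array's 50th percentile, which kept 14021 (7844 with 1 gene, 281 with several, 5896 unnamed here). Genes were named from the platform annotation, and none from a probe set with several.

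An array titled tech_rep was averaged with the biol_rep array of its number, giving 24 columns. The titles do not state this pairing. In small and middle J03 buds, arrays of the same number correlated no better (median r 0.807, 8 pairs) than those of different numbers (0.805, 16 pairs). All 12 groups entered 1 model in limma 3.58.1 (R 4.3.3; 12 residual degrees of freedom, intensity trend on). The fit of the small and middle effect took equal weights for both sizes. Single measures per replicate were compared by exact permutation. The pipeline was tested on simulated data. Alternatives covered the offset, filter, normalization, groups fitted, treatment of arrays, replicate block, the 3′ to 5′ ratio and leaving out each replicate. Those that left out a single array were chosen after seeing the data.

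Named genes were all called probe sets; uncalled genes of lowest p with separated replicates until 10 had been named in each direction; up to 5 genes (3 if uncalled) for each difference of effects; up to 3 called or 2 other members of each list; and 8 anther genes named always. The list rule took list members by the annotation's symbols; 20 lists hold 442 symbols, and 5 of the lists were added after the annotation was seen. Members, lists and tests were chosen with earlier results of these data known. Plots were made in Python 3.11.15 with matplotlib 3.10.9.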

Additional observations from a re-analysis of the deposited data

Results flagged for a closer look

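Among the 7 called probe sets, 1 array of 4 stood apart in fertile middle buds at 260355_at (232 against 833 to 884), 245668_at (1045 against 650 to 697) and AT3G61160 (3270 against 2300 to 2373). The other named probe sets were not looked at in this way. The gap to the nearest array took 0.9215, 0.8797 and 0.9248 of the group's range. Of 36 groups of arrays looked at, 3 did so, and chance gives about 1 in 20.

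The sterile-fertile change differed between middle and small buds at 261438_at (2.17). It differed between J03 and J10 at AT4G28240 (1.37), ChiC (2.01), 261901_at (2.11), 264185_at (1.35) and 263426_at (1.64).

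It differed between the early sizes and large buds at 245668_at (-1.66), 251590_at (3.15), 261438_at (-1.50), 261901_at (-1.65), AT1G12010 (-1.99) and AT3G07840 (3.75). The same held at ALDH7B4 (-1.36), AT1G52680 (3.23), AT2G46140 (1.55), 251258_at (3.91), 256966_at (3.33) and AT5G53820 (2.79). At AT1G52680 all J03 small and middle group means were below the offset, so an early fall could not show. Sterile and fertile small-bud means of AT5G53820 (51 and 84) and AT3G07840 (118 and 99) were near or below it. A small-bud fall could hardly show at these genes. At 261901_at the signal in sterile small buds, 6622, 2554, 7335 and 8330, overlapped with the fertile 13820, 8015, 11496 and 6675, whereas in large buds the sterile arrays (2781 to 6189) all exceeded the fertile ones (901 to 2422).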

How the results depend on the processing

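Counts of calls are given against those reported: 7 over both sizes, 1 for the size difference, 1 in small and 4 in middle buds, 84 in J10, 5 for the line difference and 38 for early against large. An offset divided by 4 (28.1) gave 2 over both sizes and 3 in small buds; one times 4 (449.8) gave 9 in small buds and 61 for early against large. No filter gave 1 over both sizes and 0 for the size difference, and a filter at the 75th percentile 5 in small and 2 in middle buds. Quantile normalization gave 2, 7 and 8 for the size difference, small buds and the line difference. Fitting only the 4 J03 groups gave 20, 10, 44 and 11 (both sizes, size difference, small, middle), all 7 calls among the 20. The small and middle groups of both lines gave 6 over both sizes (0 higher, 6 lower, 2 of them among the 7), 4 for the size difference and 13 in small buds. The replicate as a random block over 48 arrays gave 11, 5, 30, 10, 216, 40 and 72 in the order first given, and each array as its own sample 15, 6, 36, 13, 256, 55 and 81. The first hybridisations alone gave 2, 0, 30, 0 and 25 for both sizes, the size difference, J10, the line difference and early against large. Adding the 3′ to 5′ ratio to the model gave 11, 9, 13 and 1 for both sizes, small buds, J10 and the line difference.

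Same-numbered replicates of the J03 small and middle groups did not deviate together (r -0.02 to 0.03 over 6 pairs). Those of J10 did more so (0.094 to 0.292 over 15 pairs), and as not every pair passed 0.1 the numbers were not taken as pairs there either. With the replicate block the counts were 16, 3, 18, 9, 189 and 30, and 51 for early against large. Over the leave-one-out fits they ran from 0 to 2, 0 to 1, 0 to 1, 0 to 3, 67 to 77, 1 to 10 and 25 to 36. Without the array least like its group, J10 had 137 calls, and without the J03 one 4 remained over both sizes. The cause of these moves was not tested.

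Signs changed for 7 genes, all uncalled. AMS gave 0.014 on first hybridisations and 0.0074 with the ratio, TUB6 -0.025 on first hybridisations. Over leave-one-out fits AMS ran from -0.15 to 0.079, AT5G05600 from -0.37 to 0.16, HCT from -0.071 to 0.17, ROXY1 from -0.021 to 0.46, SWEET8 from -0.49 to 0.058 and AT3G07840 from -0.84 to 0.069. All 7 called probe sets kept their direction in all 20 alternatives; 6 of them lost the call whenever 1 replicate was left out. The 2 replicates per group limit what could be called.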
